A study of Danio rerio with 36 samples.

Results

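Noggins, Smad6 and follistatin restrain signalling by bone morphogenetic proteins (BMPs), and 5 zebrafish genes of this kind were followed across every library of the study. They are nog2 (ENSDARG00000043066), a NOG gene (ENSDARG00000058819), 2 SMAD6 genes (ENSDARG00000031763 and ENSDARG00000053209) and an FST gene (ENSDARG00000052846). They are 5 of the 31916 gene identifiers in the deposited tables, and all 5 were found there. The genes were chosen by identifier with results of these data already known, and the record of the choice does not say which measured values were used. Values in the bmp4 line and in lrp2-/- tissues are therefore given as a description, with no p-value for the 5 genes. Adjusted p-values are given in the shha line and between wild-type tissues, but the record does not exclude that those values were used too. Symbols in capitals are those of the human orthologue, and which zebrafish copy each identifier stands for is not given in the sources used here.

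BMPs are secreted ligands that bind paired type I and type II receptors, which phosphorylate Smad1, Smad5 and Smad9 and so switch on target genes such as the id and msx genes. Noggin binds the ligand outside the cell and keeps it from its receptors, and Smad6 acts inside the cell against the activated receptors and Smads. Follistatin binds activins tightly and several BMPs less tightly. In many vertebrate tissues BMP signalling itself raises transcription of noggin and Smad6 genes, which makes them feedback inhibitors, and in the eye BMP signals take part in patterning the early retina. The retinal pigment epithelium (RPE), the pigmented layer behind the photoreceptors, makes BMPs in chick and human.

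RNA sequencing of zebrafish eyes gave 36 libraries in 12 groups of 3. At 1 month after fertilization, retina, RPE, sclera together with choroid, and whole eyes were taken from lrp2-/- and from wild-type fish. The titles of these wild-type libraries begin with ZDR and those of the mutant libraries with lrp2, and the titles do not explain ZDR. Lrp2, or megalin, is a large endocytic receptor, and zebrafish that lack it are known for enlarged eyes. At 5 days after fertilization, whole larval eyes carried either hsp70l:eGFP-bmp4 or hsp70l:shha-eGFP, and each line had its own control group, labelled wild-type. The hsp70l promoter responds to heat in many cell types. The labels name neither the lrp2 allele nor a heat-shock scheme for transgenic or control larvae. They also do not say whether libraries of a group came from separate animals or pools, so each p-value rests on the variation among these libraries alone, and that variation may be technical.

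Total expected counts ranged from 17543343 to 26708466 per library. LRP2 (ENSDARG00000102506) was still transcribed in lrp2-/- tissues, at 0.63 to 16.2 TPM (a share of all transcripts, corrected for length) against 0.53 to 21.1 TPM in wild-type ones, so its RNA level does not check the genotype label. BMP4 stood at 118.8 to 147.4 TPM in the bmp4 line and at 3.46 to 3.84 TPM in its controls. SHH (ENSDARG00000068567) stood at 14.4 to 94.6 TPM in the shha line and at 4.19 to 11.3 TPM in its controls. The dissected tissues carried their markers: summed RPE markers were 14490 to 20370 TPM in wild-type RPE libraries and 220 to 268 TPM in wild-type retina and sclera libraries. RPE libraries also held markers of other tissues. Rod markers were 2541 to 16020 TPM in wild-type RPE and 43380 to 49560 TPM in wild-type retina. Corneal and surface epithelium markers were 221 to 10670 TPM in lrp2-/- RPE and 2807 to 3287 TPM in wild-type RPE. Their part in the RPE values was not tested. Wild-type libraries of sclera with choroid held corneal and surface epithelium markers at 37320 to 50180 TPM. Their fibroblast and sclera markers were lower, at 9597 to 12730 TPM. The part of such epithelium in the sclera values was not tested. One wild-type retina library, replicate 12, also held lens markers at 7900 TPM, against 48.1 and 54.7 TPM in the other two.

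In larval eyes carrying the bmp4 transgene, both noggins and both SMAD6 genes were higher than in controls, and nog2 differed most. nog2 stood at 15, 13.1 and 15.3 TPM in the transgenic libraries and at 1.46, 1.29 and 1.17 TPM in the controls. All 3 transgenic libraries lay far above all 3 controls, and the edgeR log2 fold change of nog2 was 3.40 (SE 0.16), a fold of 10.6. NOG (ENSDARG00000058819) stood at 7.61, 6.3 and 7.14 TPM against 1.29, 0.91 and 0.37 TPM. The groups were again apart, but the controls rested on only 14 to 41 counts per library, and the log2 fold change was 2.99 (SE 0.35).

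Inside the cell, the inhibitory Smads showed the same direction with smaller folds from higher starting levels. SMAD6 (ENSDARG00000031763) stood at 25.6, 22.9 and 24.9 TPM in bmp4 larvae and at 5.57, 5.89 and 6.07 TPM in controls. SMAD6 (ENSDARG00000053209) stood at 21.7, 19 and 20 TPM against 9.8, 10.4 and 9.31 TPM. Neither SMAD6 gene overlapped between the groups. Their log2 fold changes were 1.99 (SE 0.13) and 0.97 (SE 0.10), so the copy that was lower in controls ended as the higher one in bmp4 larvae.

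Follistatin moved little in the same larvae. FST (ENSDARG00000052846) stood at 4.57, 4.21 and 4.35 TPM in bmp4 larvae and at 2.92, 2.39 and 2.97 TPM in controls. The TPM groups did not overlap, while on the count scale the log2 fold change was 0.45 (SE 0.21), a fold of 1.37 against a ratio of mean TPM of 1.59. TPM also depends on which transcripts carry the reads. The mean share of the FST transcript ENSDART00000163302 was 42.1% (SD 11.1, n = 3) in bmp4 larvae and 30.6% (SD 14.6, n = 3) in controls, with overlapping ranges. On the TPM scale the median of all genes in the bmp4 line lay at 0.07 on the log2 scale. The part of transcript shares or of this shift in the FST ratio was not tested.

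**Figure D1:**
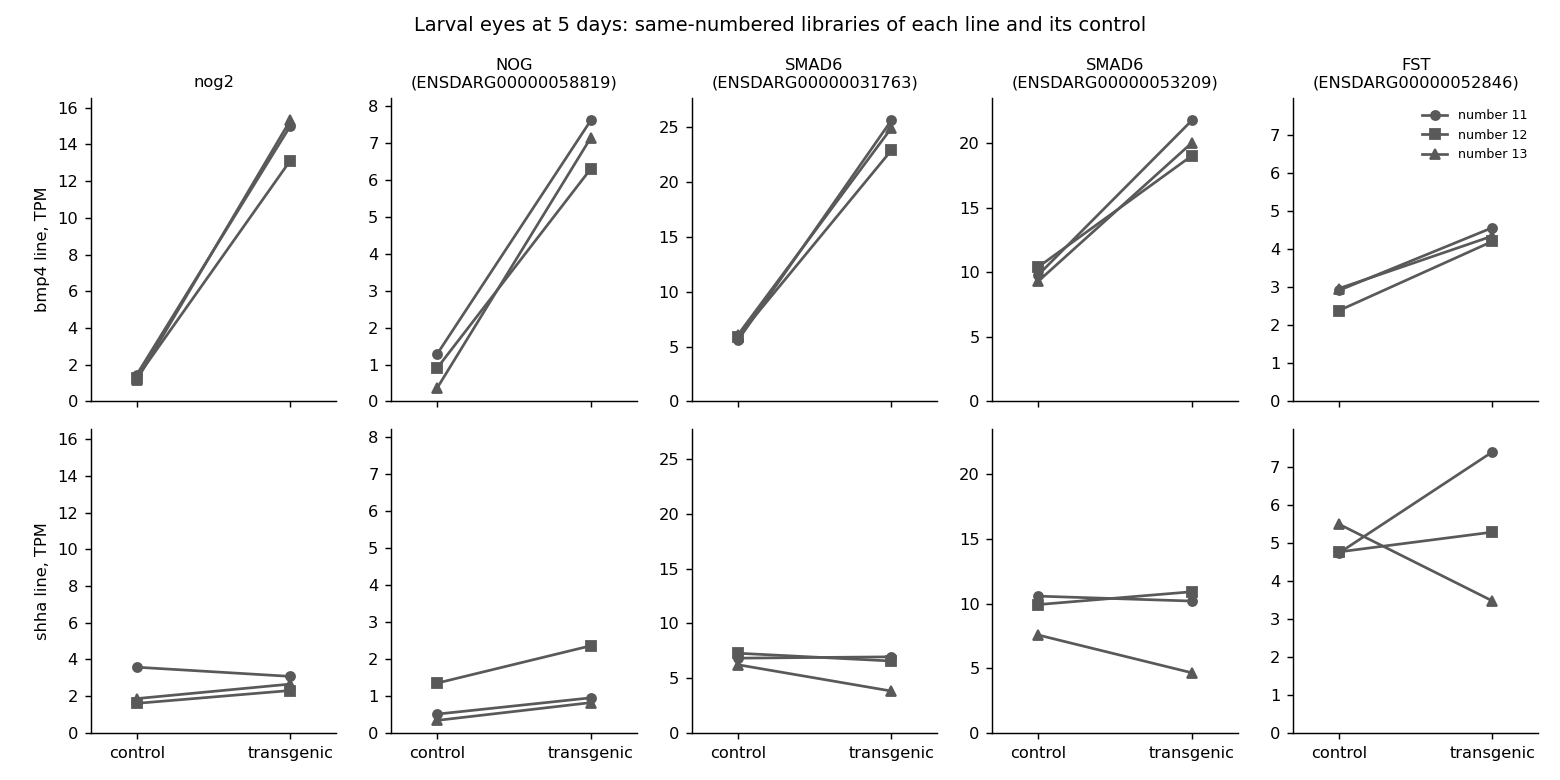
Level of each gene in TPM (vertical axis, from 0) in control and transgenic larval eyes at 5 days, bmp4 line in the upper row and shha line in the lower row. Each line joins the 2 libraries with the same replicate number; in the bmp4 line every pair rises for all 5 genes, by the smallest ratio for FST, while in the shha line pairs of 4 genes go both ways and those of NOG go up.

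edgeR's quasi-likelihood test, with Benjamini-Hochberg adjustment over all 21035 genes tested, called 4 of the 5 genes in the bmp4 line, all higher. The same rule called 0.105% of all genes in either direction and 0.0808% as higher. All 5 genes had TPM groups that did not overlap with the transgenic libraries higher, as did 6.52% of all genes tested. Same-numbered bmp4 and control libraries deviated together, and a fit with that number as a block called 2.9% of all genes and the same 4 members. The number of genes called was small and shifted with single libraries: leaving out any 1 library left nog2 and SMAD6 (ENSDARG00000031763) called in 6 of 6 fits, NOG in 1 of 6 and SMAD6 (ENSDARG00000053209) in 0 of 6. The log2 fold change of SMAD6 (ENSDARG00000053209) nevertheless stayed between 0.93 and 1.03 in those fits, and that of NOG between 2.66 and 3.38. The 5 genes were chosen with results of these data known, so the counts among them are a description and test nothing.

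The other genes of the pathway were read from 6 lists, chosen with earlier results of these data known. Their shares and p-values, here and in the other comparisons, are therefore a description and no independent support. In the bmp4 line 109 of 124 identifiers were tested, and the fit without the replicate block called 8 of the 109, all higher (7.34%). Among the ligands it was BMP4 itself, whose count may include transgene RNA, with a log2 fold change of 5.10 (SE 0.13, adjusted p = 6.22e-06). Among Smads and their ubiquitin ligases, smad9, a receptor-activated Smad, rose by 2.95 (SE 0.17, adjusted p = 0.000922). Among response genes, 5 of 30 rose, led by the homeobox gene msx2b (log2 2.44, SE 0.18, adjusted p = 0.00377), the helix-loop-helix gene atoh8 (2.32, SE 0.20, adjusted p = 0.00738), ID1 (1.12, SE 0.12, adjusted p = 0.0265) and PRRX1 (ENSDARG00000033971) (1.23, SE 0.14, adjusted p = 0.0308). Of 9 receptors, BMPR1A (ENSDARG00000105045) rose by 0.85 (SE 0.09, adjusted p = 0.0302).

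Outside nog2, NOG and FST (ENSDARG00000052846), 0 of 27 tested extracellular antagonists and modulators were called in the bmp4 line without the replicate block. The lists of activins, myostatins and their receptors held 0 called of 16. With the replicate block, 2 of these 27 antagonists rose and 6 fell, and over all 6 lists 27 of 109 rose and 13 fell. In that fit 2 of 16 ligands rose and 5 fell, while 14 of 30 response genes rose and 0 fell. Of 16 activins, myostatins and their receptors, 0 rose and 1 fell. A second NOG gene and a second FST gene share symbols with the 5 genes and were looked up after their values were seen. NOG (ENSDARG00000053528) stood at 8.76, 9.22 and 7.99 TPM in bmp4 larvae and at 0.9, 0.55 and 1.83 TPM in controls, with a log2 fold change of 2.86 (SE 0.41). Its adjusted p was 0.0823 without the block and 0.00741 with it. FST (ENSDARG00000057992) had a log2 fold change of -0.28, with an adjusted p of 0.999.

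**Figure D2:**
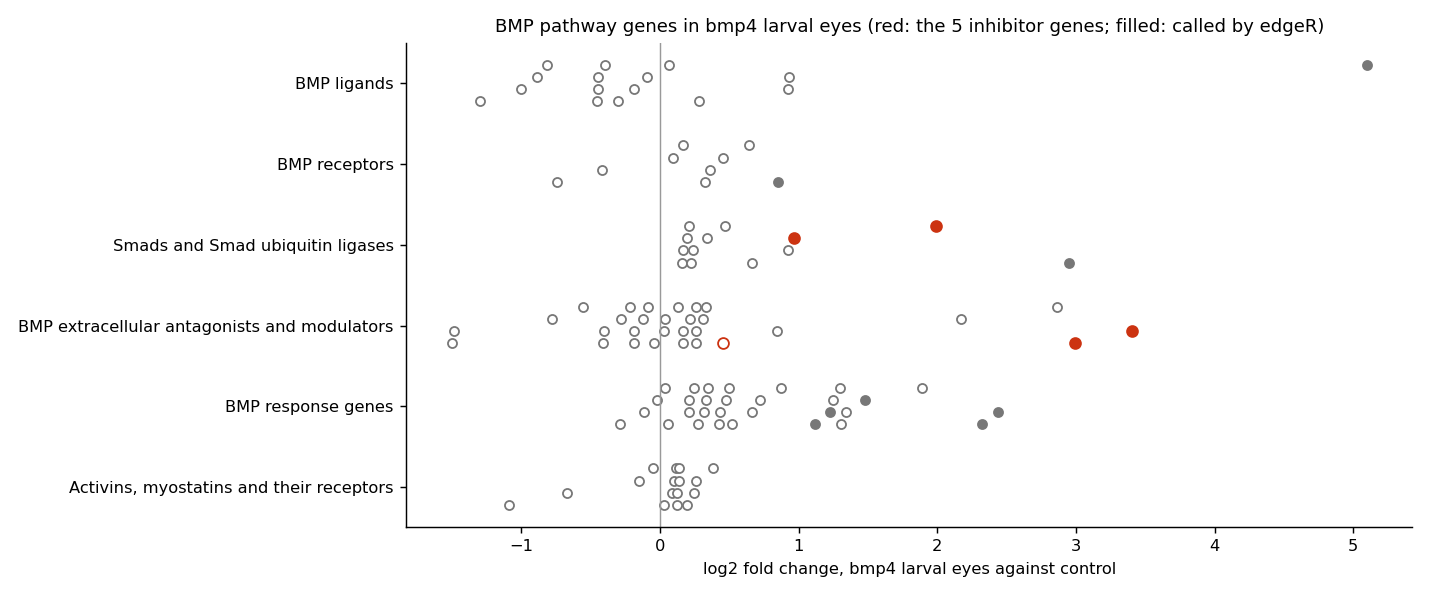
Log2 fold change between bmp4 and control larval eyes (horizontal axis) for every tested gene of 6 BMP pathway lists, 1 point per gene, with vertical offsets only to separate points. Red points are the 5 inhibitor genes and filled points were called by edgeR; nog2 at 3.40 and NOG at 2.99 lie right of all other extracellular antagonists, and FST at 0.45 lies among the uncalled ones.

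The shha line drives another secreted signal, Sonic hedgehog, from the same promoter, and the 5 genes were compared with that line's own controls. nog2 stood at 3.08, 2.31 and 2.66 TPM in shha larvae and at 3.58, 1.61 and 1.87 TPM in their controls, NOG at 0.95, 2.36 and 0.82 TPM against 0.51, 1.35 and 0.34 TPM. SMAD6 (ENSDARG00000031763) stood at 6.94, 6.56 and 3.82 TPM against 6.82, 7.27 and 6.22 TPM, and SMAD6 (ENSDARG00000053209) at 10.2, 10.9 and 4.65 TPM against 10.6, 9.93 and 7.57 TPM. FST stood at 7.39, 5.28 and 3.47 TPM against 4.73, 4.76 and 5.49 TPM. For each of the 5 genes the TPM groups overlapped, while 7.7% of all genes tested had groups apart in either direction.

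edgeR called 0 of the 5 genes in the shha line, and 0 of all 20812 genes tested (0%). At an unadjusted p under 0.05 it counted 113 genes and 0 of the 5, DESeq2 called 2 genes and 0 of the 5, and limma called 0. With the replicate number as a block edgeR again called 0%. The log2 fold changes were 0.66 (SE 0.48) for nog2, 1.20 (SE 0.59) for NOG, 0.10 (SE 0.21) and 0.16 (SE 0.20) for the SMAD6 genes and 0.46 (SE 0.23) for FST, with adjusted p between 0.900 and 0.904. All 3 same-numbered pairs of NOG were higher in shha larvae, with TPM ratios of 1.86, 1.75 and 2.41, and the replicate block gave NOG a log2 fold change of 1.30 (SE 0.44, adjusted p = 0.762), which did not pass. On the TPM scale the median of all genes lay at -0.30 on the log2 scale, and there both SMAD6 genes were lower in shha larvae, at -0.23 and -0.17. The shha library 13 held the lowest SMAD6, FST and SHH (ENSDARG00000068567) levels of its group, and without it the log2 fold change of nog2 was 0.22. Of all groups, the shha one held the pair of libraries furthest from each other, with a chi-square per degree of freedom of 257.6. Its other pairs had 19.6 and 194.9. Of 105 other pathway genes 0 were called by edgeR, DESeq2 or limma, and 1 had an unadjusted p under 0.05. Whether the bmp4 and shha effects differ was not tested, since they come from separate tables.

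**Figure D3:**
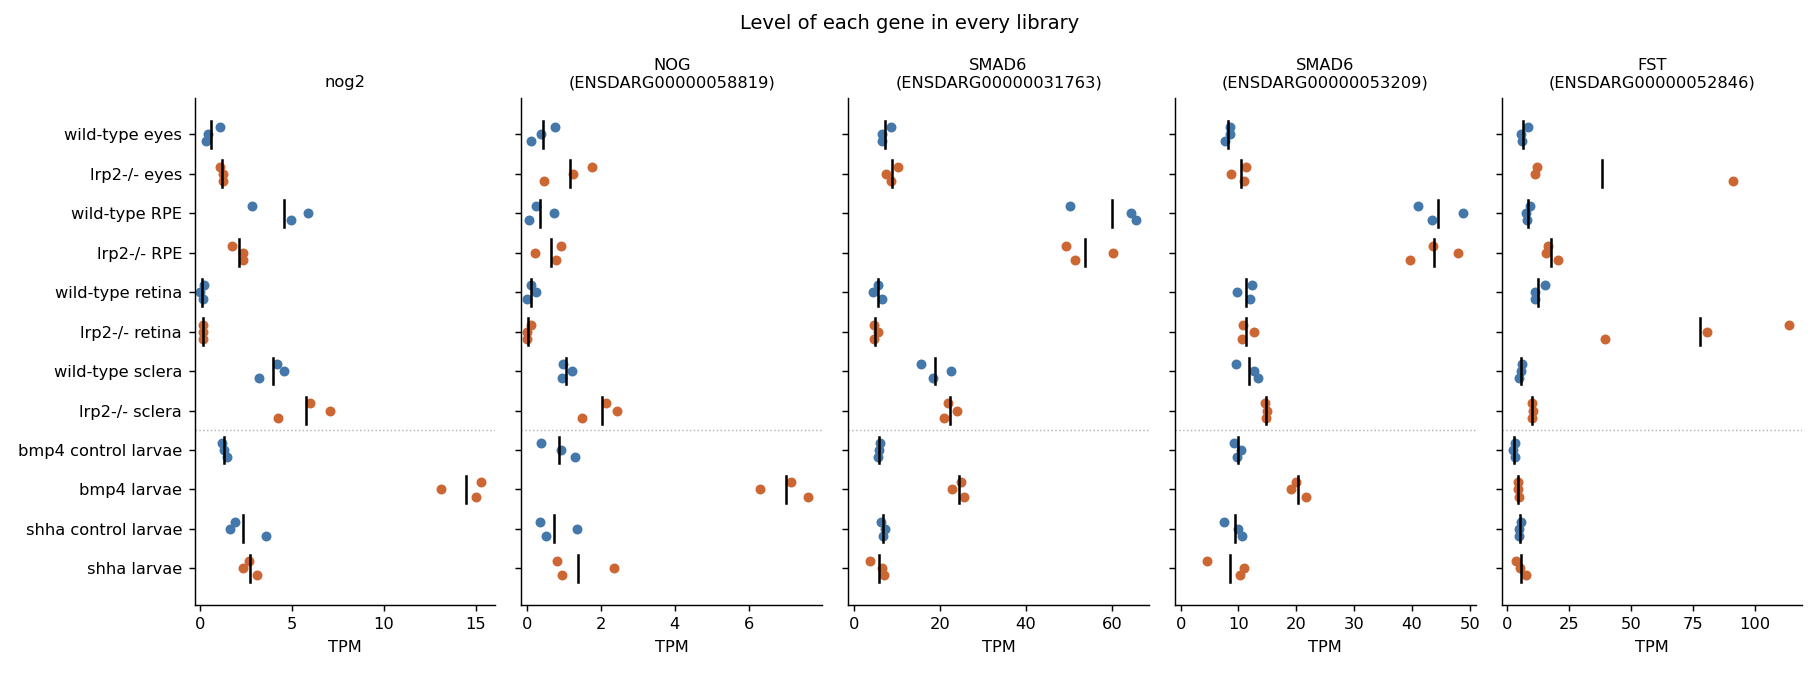
TPM of each gene (horizontal axis, a separate linear scale per gene) in the 36 libraries, with 1 row per group, 1 point per library and a bar at the group mean; blue marks wild-type or control groups and orange lrp2-/- or transgenic ones. Both SMAD6 genes are highest in RPE of either genotype, nog2 and NOG in bmp4 larvae, and FST in lrp2-/- retina and in a single lrp2-/- whole-eye library at 91.2 TPM. Sclera stands for sclera with choroid, and the larval rows below the dotted line come from separate tables.

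In the wild-type eye at 1 month, the noggins were all but missing from the retina, and both SMAD6 genes were highest in the RPE. The TPM of FST (ENSDARG00000052846) was highest in the retina, while on the count scale its tissue differences did not pass. nog2 stood at 4.93, 5.85 and 2.83 TPM in RPE, 3.18, 4.57 and 4.17 TPM in sclera with choroid, and 0.13, 0 and 0.22 TPM in retina. The retina values rest on 3, 0 and 4 counts, and RPE and sclera overlapped. The log2 fold change of nog2 was 5.54 (SE 0.58) for RPE over retina and 5.63 (SE 0.58) for sclera over retina (edgeR). nog2 passed the filter on low counts only through RPE and sclera, so these folds are given as a description, with no p-value. Between sclera and RPE it was 0.10 (SE 0.40, adjusted p = 0.87). In bulk tissue, fewer cells of a type and less RNA per cell cannot be told apart.

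NOG was low in every wild-type tissue at 1 month, with its highest wild-type values in sclera with choroid, at 0.96, 1.22 and 0.97 TPM. Wild-type RPE held 0.06 to 0.74 TPM and retina 0 to 0.25 TPM, on 0 to 6 counts per retina library. The log2 fold change was 3.66 (SE 0.96) for sclera over retina and 1.74 (SE 1.00) for RPE over retina, given as a description because NOG passed the filter on low counts through sclera. For the same reason sclera against RPE, at 1.92 (SE 0.84), is given as a description, and edgeR did not call it. The second NOG gene, NOG (ENSDARG00000053528), was the more abundant one, at 9.7 to 11.4 TPM in wild-type RPE, 5.29 to 7.2 TPM in sclera and 0.21 to 0.5 TPM in retina.

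SMAD6 (ENSDARG00000031763) stood at 65.5, 64.5 and 50.4 TPM in wild-type RPE, 18.5, 22.7 and 15.6 TPM in sclera and 6.65, 4.46 and 5.52 TPM in retina, and no 2 tissues overlapped. RPE exceeded retina by 3.70 on the log2 scale (SE 0.18, adjusted p = 2.04e-07) and sclera exceeded retina by 2.31 (SE 0.17, adjusted p = 1.65e-06). Sclera was below RPE, with a log2 fold change of -1.38 (SE 0.16, adjusted p = 0.000121).

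SMAD6 (ENSDARG00000053209) shared the RPE peak and differed less elsewhere. It stood at 43.5, 48.8 and 41.1 TPM in wild-type RPE, 13.3, 12.7 and 9.51 TPM in sclera and 12.1, 9.79 and 12.3 TPM in retina. RPE exceeded retina by 2.23 (SE 0.15, adjusted p = 1.1e-06), and sclera lay below RPE at -1.62 (SE 0.14, adjusted p = 2.66e-05). Sclera and retina overlapped in TPM, yet the count test gave 0.61 for sclera over retina (SE 0.14, adjusted p = 0.0034).

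The RPE libraries also held the most endothelial and blood RNA. The sum of 7 endothelial markers was 786 to 1271 TPM in wild-type RPE, 101 to 223 TPM in sclera and 42.2 to 43.4 TPM in retina, and that of 5 red blood cell markers was 15210 to 19060, 223 to 717 and 140 to 173 TPM. None of these markers was at 0 throughout in any of the 3 tissues. The part of such cells in the SMAD6 and nog2 levels was not tested.

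The FST gene among the 5 had another order in TPM. FST (ENSDARG00000052846) stood at 11.2, 11.3 and 15.1 TPM in wild-type retina, 8.13, 7.51 and 9.05 TPM in RPE and 4.8, 5.53 and 5.75 TPM in sclera, and the TPM ranges did not overlap. On the count scale the differences were small and did not pass: -0.08 for RPE against retina (SE 0.16, adjusted p = 0.659), -0.35 for sclera against retina (SE 0.16, adjusted p = 0.0727) and -0.27 for sclera against RPE (SE 0.16, adjusted p = 0.204). The second gene, FST (ENSDARG00000057992), had another order, at 80.4 to 91.5 TPM in wild-type RPE, 36.6 to 43.8 TPM in sclera and 10.1 to 13.6 TPM in retina.

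These 3 tissue comparisons share their libraries and called a large share of all genes, so the counts among the 5 genes carry little weight. nog2 and NOG also passed the filter on low counts only through the tissues where they were high, and their calls against retina support nothing. RPE against retina called 3 of 5, all higher, beside 69.1% of all genes in either direction and 35.9% as higher. Sclera against retina called 4 of 5, all higher, beside 73.5% and 37.9%. Sclera against RPE called 2 of 5, both lower, beside 46.2% and 22% as lower. Of 113 other pathway genes tested in RPE against retina, 62 were higher and 28 lower, among them FST (ENSDARG00000057992) at 3.24 (SE 0.13, adjusted p = 1.2e-07) and SOST, a secreted BMP and Wnt inhibitor, at 7.96 (SE 0.36, adjusted p = 1.6e-07).

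In lrp2-/- fish, FST was the one gene of the 5 whose TPM lay above wild type in every library of every tissue. In retina FST stood at 39.5, 80.4 and 113.5 TPM in mutants and at 11.2, 11.3 and 15.1 TPM in wild type. The mutant libraries spread widely, yet all lay above the wild-type ones, and the log2 fold change was 2.59 (SE 0.47). In RPE FST stood at 20.6, 15.6 and 16.4 TPM against 8.13, 7.51 and 9.05 TPM, with a log2 fold change of 0.80 (SE 0.15). In sclera with choroid it stood at 10.1, 10.2 and 9.96 TPM against 4.8, 5.53 and 5.75 TPM, with a log2 fold change of 0.76 (SE 0.14).

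In whole eyes FST stood at 91.2, 11.4 and 12.1 TPM in mutants and at 5.82, 5.33 and 8.17 TPM in wild type. The first mutant library alone was far above the rest: with it the log2 fold change was 2.32 (SE 0.79), and without it 0.75 (SE 0.21). That library also held more muscle markers (330 TPM against 26 and 70.3 in the other mutant libraries), cartilage markers (332 against 71.7 and 112) and fibroblast markers (2487 against 985 and 1170), and fewer cone markers (17570 against 28430 and 27550). Their part in the FST value was not tested.

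**Figure D4:**
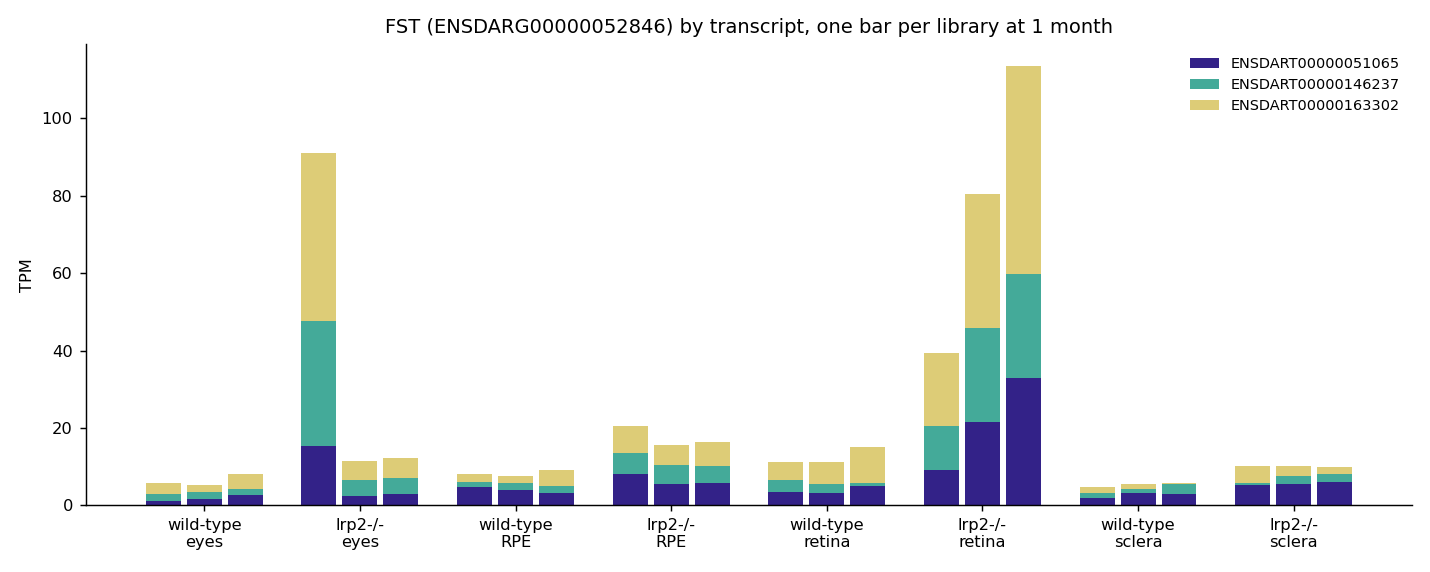
TPM of FST in the 24 libraries at 1 month (vertical axis, from 0), 1 bar per library, stacked by the 3 deposited transcripts that sum to the gene; sclera stands for sclera with choroid. The lrp2-/- retina bars reach 39.5, 80.4 and 113.5 TPM and the first lrp2-/- whole-eye bar 91.2 TPM, with every transcript taking part.

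The deposited FST level was the sum of 3 transcripts, whose counts added up to the gene within 0.01 counts in all 36 libraries, while each of the other 4 genes had a single transcript equal to the gene. In lrp2-/- retina the mean TPM was 21.1 (SD 12, n = 3) for ENSDART00000051065, 20.9 (SD 8.24) for ENSDART00000146237 and 35.8 (SD 17.4) for ENSDART00000163302. In wild-type retina these means were 3.87 (SD 1.05), 2.1 (SD 1.2) and 6.55 (SD 2.4). All 3 transcripts were thus higher in mutant retina, in every library. Their mean shares of the gene were 26.2%, 27.6% and 46.2% in mutant retina and 30.6%, 18.1% and 51.3% in wild-type retina, and for each transcript the library ranges overlapped between genotypes. Shares of single libraries scattered widely where the gene was low, from 2.96% to 31.9% for ENSDART00000163302 in wild-type sclera.

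edgeR called FST in lrp2-/- retina and in lrp2-/- sclera and none of the 5 genes in whole eyes or RPE. In retina that was 1 of the 3 genes tested, beside 19.5% of all genes in either direction and 8.13% as higher. In sclera it was 1 of 5, beside 6.64% and 2.81%. In whole eyes it was 0 of 5, beside 0.934% of all genes, and in RPE 0 of 5, beside 1.37%. At an unadjusted p under 0.05, edgeR counted 1 of the 5 in whole eyes and 3 in RPE, beside 3025 and 3541 of all genes. DESeq2 called 0 and 2 of the 5, beside 1008 and 1766 genes in all, and limma 0 and 1, beside 196 and 401. These counts describe genes chosen with these contrasts known and test nothing. Leaving out 1 library at a time, the FST call held in 2 of 6 fits in retina, being lost without any of the wild-type libraries 11, 12 and 13 or mutant library 12, and in 1 of 6 in sclera, being kept only without wild-type library 13. Its log2 fold change stayed between 2.17 and 2.92 in retina and between 0.66 and 0.88 in sclera. The lens-bearing wild-type retina library 12 held FST at 11.3 TPM, close to library 11, and without it the log2 fold change was 2.58. Several summed marker lists were apart between the genotypes in retina. Endothelial markers were higher in mutants, at 58.2 to 74.7 TPM against 42.2 to 43.4 TPM. Rod markers were lower, at 37540 to 42140 TPM against 43380 to 49560 TPM, as were those of ganglion, amacrine and bipolar neurons, at 2326 to 2715 TPM against 2830 to 3573 TPM. Muscle markers (2.07 to 3.24 against 3.32 to 4.04 TPM, 1 of 6 at 0 in every mutant library) and corneal and surface epithelium markers (33.2 to 35.3 against 35.5 to 152.6 TPM) were also lower. In sclera the Mueller glia list was lower in mutants, at 3366 to 3983 TPM against 5557 to 7178 TPM. In wild-type retina that list stood lower than in wild-type sclera, at 3512 to 4048 TPM, so it need not mark Mueller glia in sclera. RPE markers there were higher, at 260.3 to 494.8 TPM against 220.1 to 242.8 TPM, as were lens markers, at 59 to 63.7 TPM against 30.6 to 44.2 TPM. What part the cells behind these marker sums had in the FST values was not tested.

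Among the noggins, nog2 stood lower in mutant RPE, at 2.34, 2.33 and 1.74 TPM against 4.93, 5.85 and 2.83 TPM in wild type. The groups did not overlap, and the log2 fold change was -1.24 (SE 0.31), which edgeR did not call and DESeq2 did. In the same libraries summed red blood cell markers were 2510 to 4498 TPM in mutants against 15210 to 19060 TPM in wild type, and summed RPE markers 10680 to 15090 TPM against 14490 to 20370 TPM. Cartilage markers were higher in mutant RPE, at 559 to 698 TPM against 394 to 554 TPM. The part of the cells behind these sums in the nog2 and FST values in RPE was not tested. In sclera nog2 stood at 4.24, 7.09 and 5.97 TPM in mutants against 3.18, 4.57 and 4.17 TPM, an overlap, with a log2 fold change of 0.39 (SE 0.24). In whole eyes nog2 stood at 1.25, 1.23 and 1.07 TPM against 0.33, 0.42 and 1.07 TPM, with a log2 fold change of 0.88 (SE 0.48). NOG stood at 1.49, 2.43 and 2.13 TPM in mutant sclera against 0.96, 1.22 and 0.97 TPM, without overlap, and its log2 fold change of 0.78 (SE 0.30) was not called. The TPM of NOG overlapped between genotypes in whole eyes and in RPE. Its log2 fold changes there were 1.36 (SE 0.71) and 0.79 (SE 0.89), and edgeR called neither. In retina nog2 and NOG had too few counts to be tested in either genotype.

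The SMAD6 genes hardly differed between genotypes. SMAD6 (ENSDARG00000031763) had log2 fold changes of 0.18 (SE 0.15) in whole eyes, -0.33 (SE 0.13) in RPE, -0.18 (SE 0.16) in retina and 0.08 (SE 0.14) in sclera. In RPE it stood at 51.3, 60.2 and 49.4 TPM in mutants, which overlapped the wild-type values. SMAD6 (ENSDARG00000053209) had 0.22 (SE 0.13), -0.19 (SE 0.11), -0.04 (SE 0.11) and 0.15 (SE 0.15) in the same order. Its TPM ranges were apart in whole eyes, 8.78 to 11.4 against 7.67 to 8.61, and in sclera, 14.7 to 14.9 against 9.51 to 13.3. In whole eyes summed RPE markers were also higher in mutants, at 721.8 to 823.1 TPM against 360.1 to 630.7 TPM. Endothelial markers were higher too (76.2 to 85 against 66.3 to 74.3 TPM), and red blood cell markers lower (828.5 to 1815 against 2134 to 3210 TPM). The part of these cells in the whole-eye values of the 5 genes was not tested. On the TPM scale the median of all genes was itself shifted by 0.09 in whole eyes, 0.16 in RPE and 0.15 in sclera on the log2 scale.

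Non-overlapping TPM was common in these tissues and is read against its background. In whole eyes 2 of the 5 genes lay wholly above wild type (FST and SMAD6 ENSDARG00000053209), beside 14.2% of all genes tested. In RPE FST lay above (20.2% of all genes) and nog2 below (7.16%). In retina FST lay above, beside 20.6%, and in sclera FST, NOG and SMAD6 (ENSDARG00000053209) lay above, beside 26.5%.

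**Figure D5:**
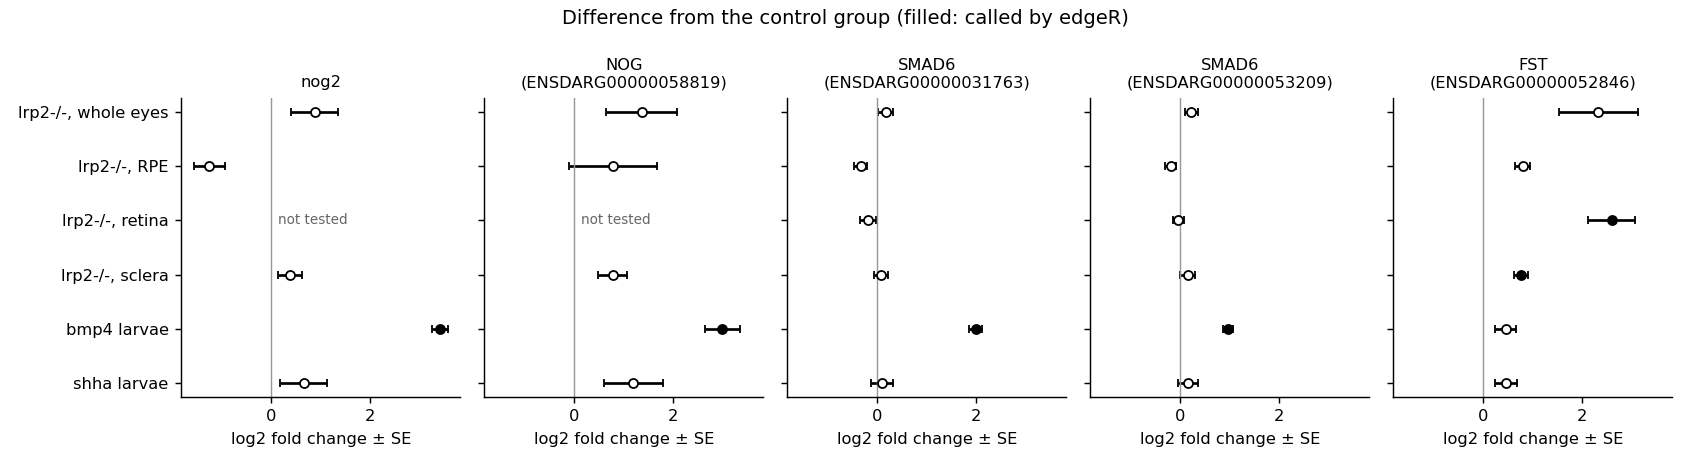
Log2 fold change with its SE (horizontal axis, edgeR) of each gene in the 4 lrp2-/- tissues and the 2 larval lines, each against its own control group of 3 libraries. Filled points were called; FST lies right of 0 in every comparison, and nog2 and NOG were not tested in retina, where their counts were too low.

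Ordered by mean TPM over the 12 groups, nog2 and NOG were led by bmp4 larvae at 14.5 (SD 1.19, n = 3) and 7.02 (SD 0.66) TPM, apart from the next group, lrp2-/- sclera at 5.77 (SD 1.44) and 2.02 (SD 0.48) TPM. From there down to retina, every pair of neighbours in the NOG order overlapped. Both SMAD6 orders were led by wild-type and lrp2-/- RPE, which overlapped each other and lay above bmp4 larvae, at 60.1 (SD 8.47), 53.7 (SD 5.76) and 24.5 (SD 1.42) TPM for SMAD6 (ENSDARG00000031763) and at 44.5 (SD 3.94), 43.7 (SD 4.07) and 20.2 (SD 1.38) TPM for SMAD6 (ENSDARG00000053209). The FST order ran from lrp2-/- retina at 77.8 (SD 37.1) TPM, which overlapped lrp2-/- whole eyes at 38.2 (SD 45.8) TPM, down to the bmp4 line's controls at 2.76 (SD 0.32) TPM. Levels of larvae and of tissues at 1 month come from separate tables.

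An F test of whether the lrp2 effect differs among the 4 tissues called 0 of the 5 genes and 2.7% of all 23849 genes tested. At an unadjusted p under 0.05 it counted 2 of the 5, beside 4022 of all genes. DESeq2 called nog2, beside 2119 genes in all. The larger FST fold in retina than in RPE or sclera is thus not shown to be a difference between tissues.

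Other pathway genes were also called in RPE, sclera and retina, and their shares are read beside those of all genes. In whole eyes edgeR called 0 of 109, beside 0.934% of all genes. At an unadjusted p under 0.05 it counted 22 of the 109, beside 3025 of all 21411 genes tested. DESeq2 called 6, beside 1008 genes in all, and limma 0, beside 196. In RPE 3 of 109 were called (2.75%), beside 1.37% of all genes. Among them were BMP8A, a ligand, at -2.27 (SE 0.19, adjusted p = 0.00943), and INHBA (ENSDARG00000012671), an activin subunit, at 0.75 (SE 0.12, adjusted p = 0.0476). In sclera 4 of 106 were called (3.77%), a smaller share than the 6.64% of all genes. Among them were SOSTDC1 (ENSDARG00000068892), a secreted BMP and Wnt inhibitor, at 1.16 (SE 0.12, adjusted p = 0.00413), and the ligand gene GDF5 at 1.14 (SE 0.25, adjusted p = 0.0425). INHBB (ENSDARG00000040777), an activin subunit, was called lower in sclera, at -0.73 (SE 0.15, adjusted p = 0.0373).

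In retina 14 of 100 other pathway genes rose and 11 fell, or 25% in all, beside 19.5% of all genes. Of 9 BMP receptors 3 rose and 0 fell, while of 15 ligands 0 rose and 2 fell. Of 23 response genes 2 rose and 1 fell. Extracellular modulators went both ways, with 4 of 24 higher and 3 lower: chrdl2, a chordin-like antagonist, fell by 1.24 on the log2 scale (SE 0.12, adjusted p = 0.000276), and FSTL3, a follistatin-like protein that binds activin, rose by 1.64 (SE 0.38, adjusted p = 0.0157). Of 11 Smads and Smad ubiquitin ligases, 2 rose and 2 fell. The inhibitory Smad gene SMAD7 rose by 0.90 (SE 0.19, adjusted p = 0.0201). SMAD5 (-0.31, SE 0.09, adjusted p = 0.0376) and smad9 (-0.84, SE 0.24, adjusted p = 0.038) were lower. Of 18 genes in the list of activins, myostatins and their receptors, 3 rose and 3 fell. The activin subunit gene INHBA (ENSDARG00000024759) rose by 0.89 (SE 0.21, adjusted p = 0.023). SMAD3 (ENSDARG00000010207) was lower, at -0.82 (SE 0.12, adjusted p = 0.00184). The second follistatin gene, FST (ENSDARG00000057992), had a log2 fold change of 0.04 (adjusted p = 0.892).

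As a description of likeness, the 3 genes with the highest Pearson correlation of log2(TPM + 1) were listed for each gene. The libraries span several tissues and both genotypes or both larval lines, and libraries of a group share these, so they are not independent points. Over the 12 larval libraries, after subtracting each table's mean, nog2 was most like ID1 (r = 0.983), PAX8 and msx2b, and SMAD6 (ENSDARG00000031763) most like C1QTNF12 (r = 0.992), msx2b and BMP4. NOG had BAMBI (ENSDARG00000055381) among its 3 (r = 0.929), SMAD6 (ENSDARG00000053209) was led by snai2 (r = 0.959) and FST by ITLN1 (r = 0.919). Over the 24 libraries at 1 month, nog2 was led by nradd (r = 0.966), SMAD6 (ENSDARG00000031763) by cald1a (r = 0.993), SMAD6 (ENSDARG00000053209) by CPVL (r = 0.984) and FST by TCF12 (r = 0.927). The SMAD6 genes correlated with each other at r = 0.897 there, and FST with nog2 at r = -0.45. Of the 27 genes listed, 17 left the first 3 when Spearman's rho was used.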

How the data were processed

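Expected counts and TPM were deposited by the authors per gene and per transcript, in 3 tables (1 for tissues at 1 month, 1 for each larval line). Per the submitters' processing notes, Bowtie2, HISAT and the zebrafish build GRCz10 were used, while versions, the counter and strand handling were not stated there. Totals ran from 17543343 to 26708466 expected counts per library. Expected counts were rounded and tested with edgeR 4.0.16 (R 4.3.3): filterByExpr, TMM scaling, robust quasi-likelihood test, Benjamini-Hochberg adjustment over all genes tested, called at an adjusted p under 0.05. SE is the log2 fold change divided by the root of F. The wild-type tissue comparisons used 1 fit of 9 libraries, and each other contrast its own 6, except the test across tissues (24). The code was tested on simulated data.

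Transcripts were assigned to genes by equal expected counts in every library, with 1 solution for each gene. Alternatives were DESeq2 1.42.0, limma 3.58.1 on log2(TPM + 1) or log2(TPM + 0.1), no low-count filter, leaving out each library, and the replicate number as a block. Same-numbered libraries of the larval lines deviated together from their group means (r = 0.447, 0.474 and 0.585 in the bmp4 line, 0.252, 0.376 and 0.247 in the shha line), so those numbers were taken to pair them, a pairing that comes from the titles and this check. Larval folds and calls given without mention of the block come from the fit that ignored this pairing.

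The 5 genes, the 6 pathway lists and the marker lists were chosen with earlier results of these data known. Pathway genes were named as examples, taken from the 4 called genes with the smallest adjusted p per list and comparison. Not all of those were named. The second NOG and FST genes were named besides. One called gene is not reported here. Duplicate libraries were looked for and not found: the chi-square per degree of freedom between libraries of a group was at least 11.2. Symbols come from the tables given for 26108 of 31916 identifiers. No genome coordinates or sequences were used here.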

Additional observations from a re-analysis of the deposited data

How the results depend on the processing

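Direction held for most values of the 5 genes: of the alternatives computed, 12 turned a sign, all on values that were not called. NOG in lrp2-/- RPE went to -0.11 with the replicate block and -0.10 in the same libraries 12 and 13 without it (the latter chosen after seeing the data). SMAD6 (ENSDARG00000053209) in lrp2-/- retina went to 0.0033 and 0.0038 with limma at either pseudocount and 0.0075 without wild-type library 11 (range -0.084 to 0.0075 over fits without 1 library). SMAD6 (ENSDARG00000031763) in sclera went to -0.023 without wild-type library 13 (range -0.023 to 0.18). In the shha line limma gave the SMAD6 genes -0.23 and -0.17 with a pseudocount of 1, and -0.27 and -0.20 with 0.1. FST in wild-type RPE against retina went to 0.025 without retina library 13 (range -0.157 to 0.025), and nog2 in wild-type sclera against RPE to -0.15 without RPE library 13 (range -0.15 to 0.28). The causes were not tested.

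Counts of called genes moved more. DESeq2 called 1008 genes in whole eyes, 1766 in RPE, 2945 in sclera, 101 in the bmp4 line, 2 in the shha line and 2119 across tissues. A fit of all 24 libraries called 461, 1994, 1745 and 2250 in whole eyes, RPE, retina and sclera. limma with a pseudocount of 0.1 called 2602 in retina and 14 in the bmp4 line. Leaving out 1 library gave 1 to 359 in whole eyes, 4 to 549 in RPE, 2020 to 3477 in retina, 355 to 1090 in sclera and 6 to 12 in the bmp4 line.

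With the replicate number as a block, 609 genes were called in the bmp4 line, 409 in whole eyes, 0 in RPE, where the block used only libraries 12 and 13 (94 without the block), and 368 in sclera. At 1 month the numbers were not taken to pair the libraries: correlations ran from -0.296 to 0.247, and not every library correlated best with its own number. Yet in wild-type sclera against RPE each number correlated best with itself, at 0.247, 0.143 and 0.037. The same held in wild-type sclera against retina, at 0.052, 0.034 and 0.103, but not for number 13 in RPE against retina. A pairing of wild-type tissues is therefore not excluded, and the fit of 9 libraries ignored it. Under the block FST in sclera was no longer called. NOG in wild-type sclera against RPE was called at 2.36, a call that supports nothing, since NOG passed the filter on low counts through sclera. NOG and nog2 held at most 6 counts in any retina library, too few to be tested between genotypes there.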
